A study of Homo sapiens with 12 samples.

Results

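The expression of 10 imprinted genes was followed in human PANC-1 pancreatic carcinoma cells separated by a fluorescent reporter of proteasome activity. The genes are H19, MEG3, CDKN1C and GRB10, which are known for expression from the maternal copy in at least some tissues, and IGF2, PEG10, MEST, PLAGL1, PEG3 and DLK1, which are known for expression from the paternal copy. They were chosen by name out of the 23284 gene symbols listed, with the lower level of H19 with 4 Gy in degron (−) cells already known, so that this contrast was described here and not tested. All cells came from a PANC-1 line infected with a retrovirus and selected with G418. The retrovirus carries ZsGreen joined to the degron of ornithine decarboxylase, so that the protein builds up only where proteasome activity is low. Degron (++) cells are the brightest cells of a line enriched by repeated sorting for ZsGreen, and degron (−) cells are the infected line with few ZsGreen-positive cells. In each population 2 libraries were made without irradiation (0 Gy) at 48 h, 2 at 30 h with 4 Gy and 2 at 48 h with 4 Gy, which gives 12 libraries in 6 groups. No label gives the event from which the hours run, or whether the libraries of a group came from separate cultures, so the p-values measure the spread between these libraries, which may be technical. The 6 libraries taken as degron (−) are called ZsGreen-negative in their titles and d+ in their descriptions.

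Imprinted genes are expressed mainly from the copy inherited from one parent, a choice that is laid down by DNA methylation in the germ line and kept by factors such as ZFP57, TRIM28 and DNMT1. They lie in clusters in which 1 control region sets the expression of several genes, as for H19 and IGF2 on chromosome 11, where CTCF binding decides which of them the shared enhancers reach. Many of them set growth before birth, and H19 and IGF2 are often expressed again in carcinomas. The values used here add both parental copies together, so they show the level of a gene and not its imprint.

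Levels are given as FPKM, in which fragments are divided by exon length and by mapped reads, so that genes can be compared with each other. FPKM hold no counts, and the depth behind each value is unknown. As judged by the steps between low values, relative depth ran from 0.859 to 1.17. Libraries of degron (++) summed to 829654 FPKM or more and those of degron (−) to 763064 FPKM or less, and for all 12 the closest library by correlation was one of the same population. An exact 0 can be a failed estimate, since 2 of 82 ribosomal protein genes were listed at 0 in all 12 libraries. The keratins and EPCAM, the markers of carcinoma epithelium, were at 29.9 FPKM or more in all 12 libraries, whereas the highest value among 3 leukocyte, 3 endothelial, 3 endocrine and 3 acinar markers was 1.92 FPKM, that of CD14. Of 4 fibroblast markers, COL1A1 was at 36.5 to 52.3 FPKM in degron (−) and 0.531 to 0.826 in degron (++), while COL1A2 and DCN were listed at 0 throughout. PANC-1 is known for a loss of the 9p21 genes CDKN2A and MTAP, yet CDKN2A was at 100 to 112 FPKM in degron (++) and at 11.04 to 21.1 FPKM in degron (−). What these 9p21 values mean for the makeup of either population was not tested, and they are given again beside the results they move with.

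Of the 10 genes, 8 reached 1 FPKM in at least 2 libraries and were tested. PEG3, a zinc finger gene, was listed at 0 in all 12 libraries, and so was ZIM2, which shares exons with it. DLK1, which codes for a NOTCH ligand of fetal tissues, was listed at 0 in all degron (++) libraries and at 0 to 0.062 FPKM in degron (−). MEG3 passed the filter only through its values in degron (−). Rows that overlap or adjoin the members held little: the read-through row INS-IGF2 reached 0.167 FPKM, MESTIT1 at MEST 0.227 and HYMAI at PLAGL1 0.161.

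Sequences are shown for the 2 noncoding RNAs that the results turn on. H19 is the precursor of a microRNA whose hairpin, chr11:1996759-1996831 on the minus strand of GRCh38.p14, lies in exon 1 in 4 of the 5 GENCODE transcripts that span it. The RefSeq hairpin follows with its mature arms in capitals, and then each arm with its seed (bases 2 to 8) in capitals. The seeds of the arms differ from each other.
MIR675 hairpin: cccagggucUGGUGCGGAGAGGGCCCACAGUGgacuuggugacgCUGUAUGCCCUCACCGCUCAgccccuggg
hsa-miR-675-5p: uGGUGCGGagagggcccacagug
hsa-miR-675-3p: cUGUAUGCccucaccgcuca
The row MIR675 was listed at 0 in all 12 libraries, as were MIR335 inside MEST, MIR483 inside IGF2 and MIR770 inside MEG3. These libraries were made from polyadenylated RNA, so the rows do not measure the mature microRNAs.

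MEG3 was the only one of the 8 tested members at 0 in a whole population, and its promoter is shown for that reason. The window holds 250 bases before and 50 bases after the first of its RefSeq starts, chr14:100825858-100826157 on the plus strand of GRCh38.p14. Capitals mark TGACGTCA, the sequence known as the cAMP response element, which ends 42 bases before the start, and TATAAA, which ends 12 bases before it.
MEG3 promoter: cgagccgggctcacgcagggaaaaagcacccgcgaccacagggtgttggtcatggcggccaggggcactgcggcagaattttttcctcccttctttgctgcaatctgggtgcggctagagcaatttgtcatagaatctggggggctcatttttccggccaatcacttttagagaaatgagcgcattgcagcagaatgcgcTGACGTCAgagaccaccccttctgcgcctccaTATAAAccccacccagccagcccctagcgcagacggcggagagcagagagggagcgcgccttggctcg
Searched on both strands, TGACGTCA occurs in 1.84% of the 34796 RefSeq windows of this length and TATAAA in 11.6%. GGGCGG, searched in the same way, occurs in 44.9% of the windows and is absent from that of MEG3. The MEG3 window holds 19 CpG dinucleotides, against a median of 14.0 over all windows, and 57.1% of the windows hold fewer than it does. The matches are a description of the sequence. No methylation or binding was measured.

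The populations differed in most of these genes. Degron (++) cells had higher PEG10 and PLAGL1 and lower H19, IGF2, MEST and GRB10 than degron (−) cells in every condition, MEG3 was listed at 0 in degron (++), and CDKN1C did not pass the test. For these 7 genes other than CDKN1C, no degron (++) library overlapped with any degron (−) library. Such separations were common: all 6 degron (++) libraries lay above all 6 degron (−) libraries for 34.1% of the 12946 genes tested, and below them for 37.2%. The libraries of the comparison at 30 h take no part in the contrast on which H19 was selected, while both comparisons at 48 h share libraries with it. The spread behind each standard error was estimated from all 12 libraries, so the test at 30 h also draws on those of the selection.

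**Figure D1:**
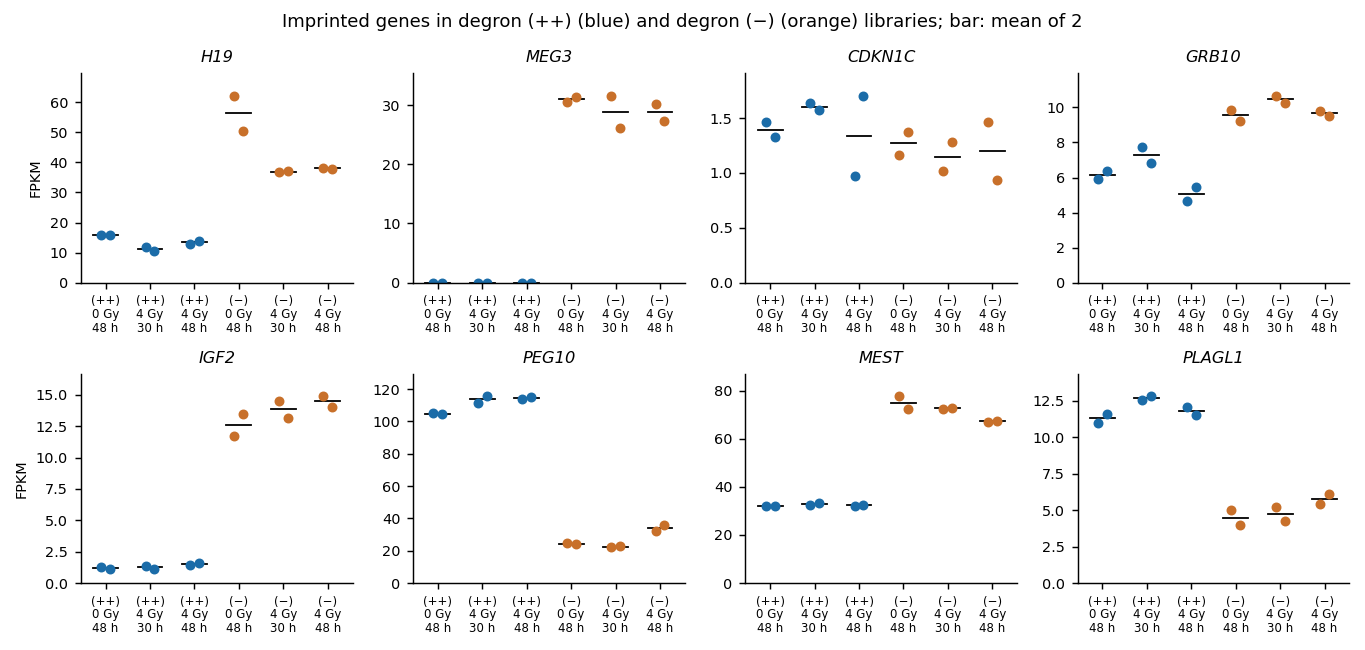
FPKM of the 8 tested imprinted genes in each library (points, 2 per group) with the group mean (bar), on linear axes that start at 0. Degron (++) libraries are blue and degron (−) libraries orange. PEG10 and PLAGL1 lie higher in all degron (++) libraries, H19, MEG3, GRB10, IGF2 and MEST lie lower, and CDKN1C overlaps between 0.938 and 1.70 FPKM.

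H19, a maternally expressed noncoding RNA, was at 15.9 and 15.8 FPKM in degron (++) cells at 0 Gy and 48 h, at 11.9 and 10.6 FPKM at 4 Gy and 30 h, and at 13.0 and 13.8 FPKM at 4 Gy and 48 h. In degron (−) cells it was at 62.2 and 50.4 FPKM at 0 Gy and 48 h, at 36.7 and 37.0 FPKM at 4 Gy and 30 h, and at 38.2 and 37.8 FPKM at 4 Gy and 48 h. The highest degron (++) library, at 15.9 FPKM, lay below the lowest degron (−) library, at 36.7 FPKM. The mean was 3.28 times as high in degron (−) at 30 h with 4 Gy, where log2(FPKM + 1) was lower in degron (++) by 1.63 (standard error 0.088, adjusted p = 1.95e-07, limma). At 48 h the mean ratio was 3.56 at 0 Gy and 2.84 at 4 Gy, given without a test because the degron (−) libraries are those on which H19 was selected.

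MEG3, a maternally expressed noncoding RNA of chromosome 14 with growth-restraining activity, was listed at 0 in all 6 degron (++) libraries. In degron (−) it was at 30.6 and 31.4 FPKM at 0 Gy, at 31.6 and 26.2 FPKM at 30 h with 4 Gy, and at 30.2 and 27.3 FPKM at 48 h with 4 Gy. No fold can be given against values of 0. It was 1 of 100 genes that were listed at 0 in all degron (++) libraries while at 1 FPKM or more in all degron (−) libraries; no gene showed the opposite. Of the other genes of the same cluster, MEG8 and DIO3 were also lower in degron (++), but both passed the filter only through degron (−). MEG8, a noncoding RNA beside MEG3, was listed at 0 in degron (++) and at 1.15 to 3.97 FPKM in degron (−). DIO3, an enzyme that inactivates thyroid hormone, was at 0.044 to 0.350 FPKM in degron (++) and 3.02 to 4.61 FPKM in degron (−). DLK1 and RTL1, of the same cluster, stayed at or under 0.064 FPKM in every library, too low to compare the populations.

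CDKN1C, an inhibitor of cyclin-dependent kinases, was at 0.970 to 1.70 FPKM in degron (++) and at 0.938 to 1.46 FPKM in degron (−), and the populations overlapped. Its log2 difference was 0.28 at 30 h (standard error 0.162, adjusted p = 0.143, limma). After quantile normalization this difference was 0.58 (adjusted p = 0.0169). At 48 h its log2 difference was 0.08 at either dose (adjusted p = 0.679 at 0 Gy and 0.672 at 4 Gy) and changed sign after TPM rescaling.

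GRB10, an adaptor that restrains insulin and IGF receptor signaling, was at 5.93 and 6.36 FPKM in degron (++) at 0 Gy, at 7.74 and 6.84 FPKM at 30 h with 4 Gy, and at 4.66 and 5.48 FPKM at 48 h with 4 Gy. In degron (−) it was at 9.20 to 10.7 FPKM. All degron (++) libraries were lower, with a log2 difference of -0.47 at 30 h (standard error 0.081, adjusted p = 0.000538, limma), -0.56 at 0 Gy and -0.82 at 48 h with 4 Gy.

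Among the paternally expressed genes, IGF2, a fetal growth factor, was lower in degron (++). It was at 1.29 and 1.09 FPKM in degron (++) at 0 Gy, at 1.33 and 1.15 FPKM at 30 h with 4 Gy, and at 1.41 and 1.59 FPKM at 48 h with 4 Gy. In degron (−) it was at 11.7 and 13.5 FPKM at 0 Gy, at 14.6 and 13.2 FPKM at 30 h with 4 Gy, and at 14.9 and 14.0 FPKM at 48 h with 4 Gy. The mean was 11.2 times as high in degron (−) at 30 h, with a log2 difference of -2.73 (standard error 0.091, adjusted p = 9.41e-09, limma). IGF2 and H19, neighbours that share enhancers, were therefore both lower in degron (++).

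PEG10, a gene derived from a retrotransposon and needed in the placenta, had the highest level of the 8 genes in degron (++). It was at 105 and 104 FPKM at 0 Gy, at 111 and 116 FPKM at 30 h with 4 Gy, and at 114 and 115 FPKM at 48 h with 4 Gy. In degron (−) it was at 24.9 and 23.8 FPKM at 0 Gy, at 22.2 and 22.9 FPKM at 30 h with 4 Gy, and at 32.1 and 35.9 FPKM at 48 h with 4 Gy. All degron (++) libraries were above all degron (−) libraries. The mean was 5.04 times as high in degron (++) at 30 h, with a log2 difference of 2.28 (standard error 0.051, adjusted p = 9.98e-10, limma), and 4.30 and 3.36 times as high at 48 h without and with 4 Gy. SGCE, which starts beside PEG10 on the opposite strand and is imprinted alike, was lower in degron (++), at 4.20 to 6.23 FPKM against 7.19 to 8.37 FPKM (log2 difference -0.66 at 30 h, adjusted p = 0.000137).

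MEST, which codes for a hydrolase-like protein of mesoderm, was at 32.0 to 33.2 FPKM in degron (++) and at 67.1 to 77.8 FPKM in degron (−). The libraries of degron (++) hardly varied, and all lay below degron (−). The mean was 2.22 times as high in degron (−) at 30 h, with a log2 difference of -1.12 (standard error 0.038, adjusted p = 1.15e-08, limma).

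PLAGL1, a zinc finger transcription factor, was at 10.99 to 12.8 FPKM in degron (++) and at 3.98 to 6.13 FPKM in degron (−). The mean was 2.68 times as high in degron (++) at 30 h, with a log2 difference of 1.26 (standard error 0.107, adjusted p = 4.31e-06, limma). At 48 h with 4 Gy it was 2.04 times as high (adjusted p = 4.61e-05).

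Of the 7 genes other than MEG3, whose direction the filter fixed, 2 were higher and 4 lower in degron (++) at 30 h, and CDKN1C did not pass. Of the 11211 genes that passed the filter in both populations, 40.0% were higher and 37.8% lower at 30 h. At 30 h with 4 Gy, 38.3% of all genes tested were higher and 40.8% lower in degron (++). The shares were 37.6% and 40.2% at 0 Gy, and 37.1% and 39.6% at 48 h with 4 Gy. Rescaling each library to the same sum (TPM) moved the median log2 difference of all genes at 30 h from -0.02 to -0.27 and the calls from 4964 higher and 5276 lower to 3348 higher and 6718 lower, and left the directions of the genes that passed as they were. A single microRNA row made up 28.57% to 29.95% of that sum in degron (++) and 22.5% to 27.09% in degron (−), so TPM values depend in part on it. Most genes tested passed the threshold, so the count itself sets these genes little apart. The order of levels changed between the populations. In degron (++) it ran from PEG10 through MEST to H19 and PLAGL1, whose ranges overlap, then GRB10, then CDKN1C and IGF2, which also overlap. In degron (−) MEST came first, followed by H19, by MEG3 and PEG10, which overlap, by IGF2, GRB10 and PLAGL1, and by CDKN1C.

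**Figure D2:**
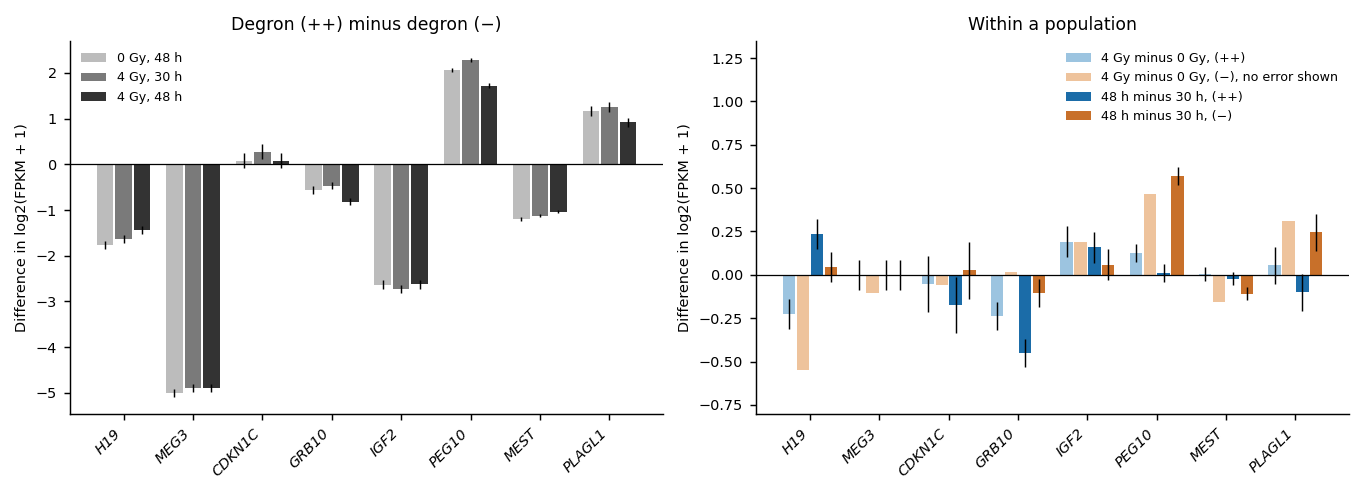
Differences in log2(FPKM + 1) of the 8 genes between populations in each condition (left) and between doses or times within a population (right), with standard errors from limma. MEG3 is listed at 0 in degron (++), so its bars on the left depend on the pseudocount of 1. The contrast on which H19 was selected, 4 Gy minus 0 Gy in degron (−), is drawn without an error, and H19 is at -0.55 in it.

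The question of a response to irradiation was put to each population at 48 h. H19 was lower at 4 Gy than at 0 Gy in degron (−), with means of 38.0 ± 0.276 and 56.3 ± 8.31 FPKM (SD, n = 2 each). The 0 Gy libraries lay apart from each other, at 62.2 and 50.4 FPKM, while those at 4 Gy were nearly equal. Both 0 Gy libraries were above all 4 libraries at 4 Gy, including those at 30 h. The selection did not use the 30 h libraries, but it did use these 0 Gy libraries, so the order is not independent of it. The mean decreased by 32.4%, or by 0.55 on the log2 scale, and by 0.69 or 0.40 when the lower or the higher of the 0 Gy libraries was left out.

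The other members in this contrast are likewise a description. PEG10 was higher by 0.46, PLAGL1 by 0.31 and IGF2 by 0.19 on the log2 scale at 4 Gy in degron (−). MEST was lower by 0.16 and MEG3 by 0.11. CDKN1C and GRB10 overlapped between the doses. How many of all genes tested separate between 2 and 2 libraries was not counted, so separation is not listed for the others. IGF2, at 11.7 and 13.5 FPKM without and 14.9 and 14.0 FPKM with irradiation, thus lay on the other side from H19. Over all genes tested 4.73% passed the threshold in this contrast.

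In degron (++), the same comparison used none of the libraries on which H19 was selected. Its standard error came from all 12 libraries, however, among them those of the selection, so its p-value is not fully independent of it. H19 was at 15.9 and 15.8 FPKM at 0 Gy and at 13.0 and 13.8 FPKM at 4 Gy. Its log2 difference was -0.23 (standard error 0.088) and did not pass the threshold (adjusted p = 0.233, limma), and over 12 alternative settings and left-out libraries the adjusted p lay between 0.134 and 0.515. None of the 8 genes passed by limma, against 1.82% of all genes tested, while 3 (H19, GRB10 and PEG10) had an unadjusted p under 0.05, as did 17.6% of all genes tested. Both 0 Gy libraries of degron (++) also lay above all 4 irradiated libraries for H19, and for no other of the 8 genes. This order was looked for after the H19 values were seen, and it held for 12.9% of the genes tested in degron (++) and 11.7% in degron (−). Whether the dose difference of H19 differs between the populations was not tested, since that test would use the contrast on which H19 was selected.

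**Figure D3:**
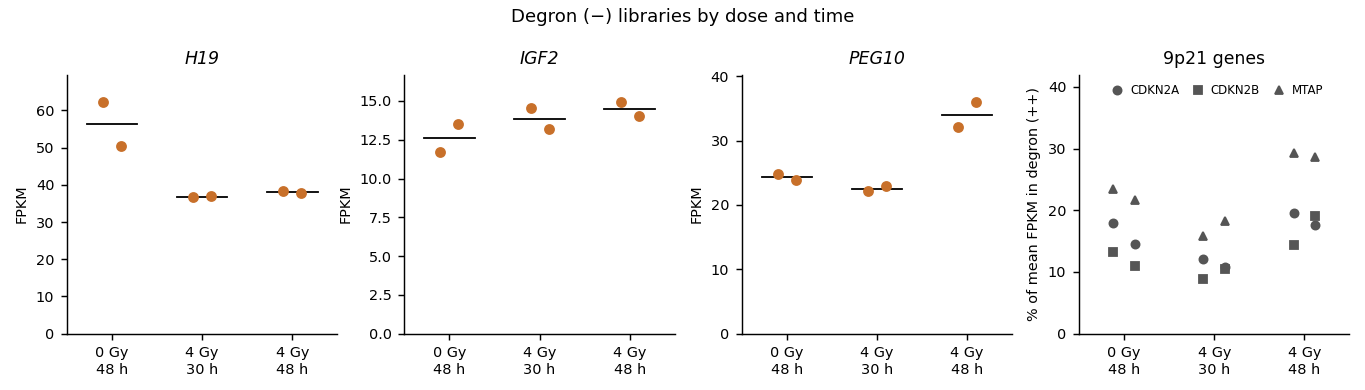
The 6 degron (−) libraries by dose and time. The first 3 panels give FPKM of H19, IGF2 and PEG10 (points, with the mean of 2 as a bar), and the fourth gives the 9p21 genes CDKN2A, CDKN2B and MTAP as a percentage of their mean FPKM in degron (++) at the same dose and time. H19 is highest at 0 Gy, whereas PEG10 and the 9p21 genes are highest at 48 h with 4 Gy.

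The median level of the 9p21 genes in degron (−), relative to degron (++), was 17.9% and 14.5% at 0 Gy, 12.2% and 10.8% at 30 h with 4 Gy, and 19.5% and 19.1% at 48 h with 4 Gy. H19 was nearly the same at 30 h and at 48 h with 4 Gy, where the 9p21 genes differed most. It was higher at 0 Gy, where they lay between. COL1A1, at 52.3 and 44.1 FPKM at 0 Gy and 36.5 to 38.9 FPKM at 4 Gy, was also highest at 0 Gy in degron (−). The part of a changed makeup of degron (−), or of COL1A1, in the H19 result was not tested.

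Between 30 h and 48 h with 4 Gy, PEG10 rose in degron (−) cells from a mean of 22.5 ± 0.511 to 34.0 ± 2.71 FPKM (SD, n = 2 each). Both libraries at 48 h were above both at 30 h, an order whose share over all genes tested was not counted. The ratio of means was 1.51, with a log2 difference of 0.57 (standard error 0.051, adjusted p = 0.000656, limma). It was the only 1 of the 8 genes past the threshold, against 7.18% of all genes tested. With only the 4 libraries of this comparison in the fit, PEG10 no longer passed (adjusted p = 0.0859). In degron (++) PEG10 stayed at 111 to 116 FPKM with 4 Gy, with a log2 difference of 0.01 (adjusted p = 0.964). The difference between these differences was -0.56 (standard error 0.073, adjusted p = 0.00971, limma), and 3.23% of all genes tested passed in that comparison. There was no unirradiated group at 30 h, so a change with time alone and one that depends on irradiation cannot be told apart.

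The rise of PEG10 went along with that of the 9p21 genes: CDKN2A, CDKN2B and MTAP rose as well in degron (−), with log2 differences of 0.73, 0.80 and 0.55. NLRP2 and ERAP2, genes of the wider imprinted list that are higher in degron (++), also rose in degron (−), by 0.70 and 0.31. CPA4 of that list, whose levels overlap between the populations, rose too, from a mean of 3.66 to 5.70 FPKM. Of the 28 tested genes of the list, 3 passed in this comparison, against 7.18% of all genes tested. The carcinoma markers EPCAM and KRT7 moved the same way, with EPCAM at 29.9 and 31.9 FPKM at 30 h and at 44.8 and 52.8 FPKM at 48 h. All of these genes other than CPA4 are higher in degron (++) in every condition. CPA4 did not pass between the populations at 0 Gy (log2 difference 0.04, adjusted p = 0.674, limma). The part of a changed makeup of the degron (−) population in the PEG10 result was not tested. PLAGL1, at 5.24 and 4.22 FPKM at 30 h and at 5.43 and 6.13 FPKM at 48 h, had a log2 difference of 0.25 and did not pass (adjusted p = 0.221).

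In degron (++), GRB10 fell between 30 h and 48 h with 4 Gy, from 7.74 and 6.84 FPKM to 4.66 and 5.48 FPKM. The log2 difference was -0.45 (standard error 0.081, adjusted p = 0.0405, limma), and 1.21% of all genes tested passed. This call was lost without any 1 of the 4 libraries and in 5 other settings, with adjusted p values up to 0.323. In degron (−) the log2 difference of GRB10 was -0.10 (adjusted p = 0.498), and the difference between the populations did not pass (adjusted p = 0.156). H19 did not pass between the times in degron (++), with a log2 difference of 0.24 (adjusted p = 0.244). In degron (−) it was 0.05, given without a test because the 48 h libraries took part in the selection of H19.

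A list of 59 other imprinted genes was examined in the same fit, of which 51 were listed and 28 tested. At 30 h with 4 Gy 12 were higher and 14 lower in degron (++), and the median log2 difference was -0.17. At 0 Gy 11 were higher and 12 lower, and at 48 h with 4 Gy 11 and 13. MEG8, DIO3 and NAP1L5 passed the filter only through degron (−) and PPP1R9A only through degron (++). Over the other 24, 11 were higher and 11 lower at 30 h. The shares were 40.0% and 37.8% over the 11211 genes that passed the filter in both populations. Over all genes tested, 38.3% were higher and 40.8% lower at 30 h. At the end of lower levels in degron (++), PHLDA2, which restrains placental growth, was at 36.8 to 48.5 FPKM against 110 to 155 FPKM in degron (−). SLC22A18, a transporter gene of the same cluster, was at 1.26 to 2.85 FPKM against 7.94 to 9.07 FPKM. IGF2R, the receptor that clears IGF2, was at 17.1 to 19.2 FPKM against 57.5 to 73.1 FPKM. The tested genes of chromosome 15 differed in both directions. SNURF was lower in degron (++), at 33.6 to 46.6 FPKM against 78.5 to 92.0 FPKM, and so were IPW, at 0.786 to 1.20 FPKM against 2.43 to 3.10 FPKM, and UBE3A, a ubiquitin ligase, at 16.7 to 18.8 FPKM against 20.8 to 22.96 FPKM. MKRN3 was higher at 30 h (log2 difference 0.46, adjusted p = 0.0204, limma), at 2.29 to 3.39 FPKM against 1.43 to 2.40 FPKM over all libraries. SNRPN, which shares its transcript with SNURF, was listed at 0 throughout, so the assignment of reads between the rows is uncertain.

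At the other end, NLRP2, a gene of the inflammasome family, was at 97.4 to 106 FPKM in degron (++) and 11.5 to 22.3 FPKM in degron (−). ERAP2, an aminopeptidase of antigen processing, was at 42.6 to 49.5 FPKM against 11.4 to 15.2 FPKM, and FAM50B at 5.85 to 8.34 FPKM against 0.767 to 1.79 FPKM. GNAS, the G protein subunit that activates adenylyl cyclase, was the most abundant of the list, and at 510 to 533 FPKM against 442 to 473 FPKM its log2 difference at 30 h was 0.18 (adjusted p = 0.000308, limma). This changed sign after TPM rescaling (-0.10) and quantile normalization (-0.07). With irradiation at 48 h, 2 of the 28 genes rose and 0 fell in degron (++), where 1.82% of all genes tested passed in either direction. In degron (−) 4 rose and 0 fell, against 4.73%. CPA4, a carboxypeptidase, rose in both, from 3.30 and 3.02 FPKM to 7.83 and 7.37 FPKM in degron (++) (log2 difference 1.05, adjusted p = 0.00531, limma) and from 3.15 and 2.91 FPKM to 5.17 and 6.22 FPKM in degron (−) (log2 difference 0.73, adjusted p = 0.00537). PHLDA2 rose in both by less, with log2 differences of 0.29 (adjusted p = 0.0417) and 0.34 (adjusted p = 0.0133). ERAP2 and NLRP2 were the others called in degron (−). Of the 3 9p21 genes, 0 were called by limma in this dose contrast. All 3 had an unadjusted p under 0.05, as did 20.9% of all genes tested. The part of the 9p21 genes in these calls was not tested.

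**Figure D4:**
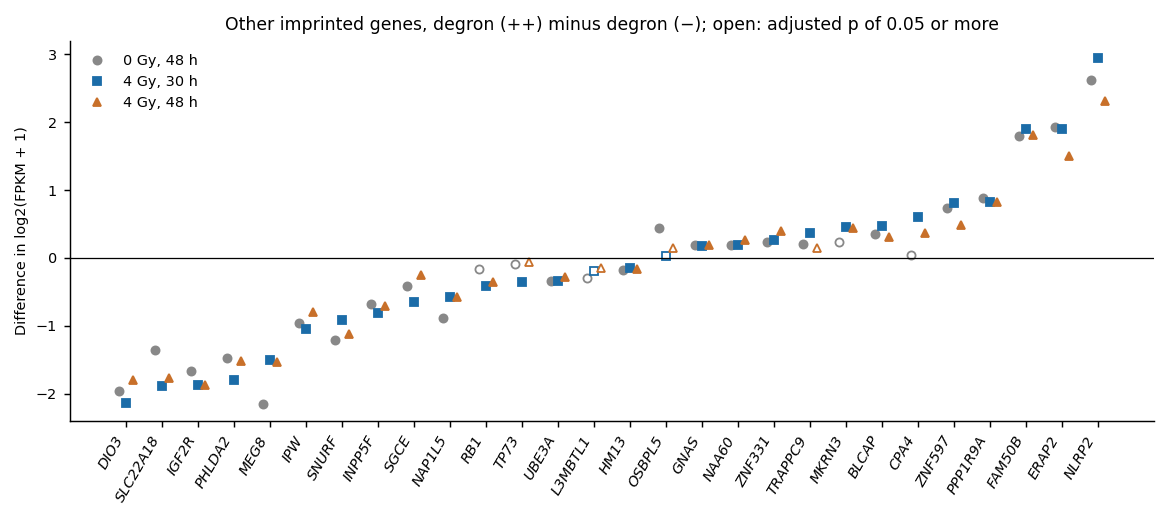
Differences in log2(FPKM + 1), degron (++) minus degron (−), of 28 other imprinted genes at 0 Gy and 48 h (circles), 4 Gy and 30 h (squares) and 4 Gy and 48 h (triangles), ordered by the 30 h value. Filled symbols have an adjusted p under 0.05. DIO3 and SLC22A18 lie at the lower end and NLRP2, ERAP2 and FAM50B at the upper end, and the conditions lie close together for most genes.

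Of 15 neighbours of H19 and IGF2 on chromosome 11 that are not among the imprinted genes above, 8 were tested, and 7 were lower and 1 higher in degron (++) at 30 h with 4 Gy, where 40.8% of all genes tested were lower and 38.3% higher. SYT8, among the 7, passed the filter only through degron (−), and its difference at 48 h turned to the opposite sign after quantile normalization. The lysosomal protease CTSD was at 221 to 264 FPKM in degron (++) and 496 to 525 FPKM in degron (−), and the tetraspanin CD81 at 141 to 164 FPKM against 215 to 263 FPKM. The exception was TH, tyrosine hydroxylase, at 6.59 to 7.90 FPKM against 1.13 to 3.19 FPKM. Neither dose comparison called any of the 8 by limma, against 1 gene in degron (++) and 0 in degron (−) at an unadjusted p under 0.05, where 17.6% and 20.9% of all genes tested stood. The copy number of this segment was not measured.

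Of 17 genes that set or keep imprints, 13 were tested, and at 30 h 6 were higher and 3 lower in degron (++), where 38.3% of all genes tested were higher and 40.8% lower. CTCF, the insulator protein of the H19 and IGF2 control region, was at 27.3 to 31.9 FPKM in degron (++) and 20.1 to 23.3 FPKM in degron (−) (log2 difference 0.49, adjusted p = 4.5e-05, limma). TRIM28, a corepressor that keeps imprints methylated, was at 415 to 436 FPKM against 294 to 331 FPKM. DNMT3A, a methyltransferase that writes new methylation, was at 1.06 to 2.09 FPKM against 5.22 to 6.51 FPKM (log2 difference -1.66, adjusted p = 9.86e-07). DNMT1, the maintenance methyltransferase, was at 75.5 to 83.4 FPKM against 67.2 to 72.8 FPKM, a difference at 48 h that turned to the opposite sign after TPM rescaling (-0.12 at 0 Gy and -0.15 at 4 Gy). ZFP57 was listed at 0 throughout. No gene of this list passed between the doses in either population by limma, and 1 in degron (++) and 0 in degron (−) had an unadjusted p under 0.05, against 17.6% and 20.9% of all genes tested.

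The pathway of IGF2 and the partners of H19 and IGF2 RNA differed in both directions. Of 20 genes listed, 16 were tested, and 7 were higher and 7 lower in degron (++) at 30 h, where 38.3% of all genes tested were higher and 40.8% lower. IGFBP2, IGF2BP1 and LIN28B passed the filter only through degron (−) and IGFBP1 only through degron (++), and over the other 12 genes 6 were higher and 4 lower. Over the 11211 genes that passed the filter in both populations, 40.0% were higher and 37.8% lower. IGF1R, the receptor through which IGF2 signals, was at 9.53 to 10.98 FPKM in degron (++) and 12.9 to 14.6 FPKM in degron (−), and IGF1 did not exceed 0.012 FPKM. IRS1 and IRS2 were higher in degron (++), at 9.2 to 10.6 FPKM against 6.72 to 8.08 FPKM and at 2.84 to 4.03 FPKM against 0.727 to 1.40 FPKM. Among the binding proteins, which hold IGFs outside the cell, differences ran in opposite directions. IGFBP4 overlapped between the populations, at 43.0 to 51.1 FPKM against 35.2 to 48.2 FPKM. Its log2 difference at 30 h was 0.13, and -0.15 after TPM rescaling. IGFBP2 was at 0 to 0.138 FPKM in degron (++) and 68.0 to 87.3 FPKM in degron (−). IGFBP3 was at 106 to 123 FPKM against 5.67 to 14.8 FPKM, IGFBP6 at 69.9 to 89.4 FPKM against 10.1 to 20.4 FPKM, and IGFBP7 at 47.5 to 58.5 FPKM against 1.85 to 5.74 FPKM.

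The list also holds RNA-binding proteins and a chromatin protein. IGF2BP1, which binds IGF2 and H19 RNA, did not exceed 0.012 FPKM in degron (++) and was at 6.46 to 7.03 FPKM in degron (−). LIN28B, which blocks the maturation of let-7 microRNAs, was listed at 0 in degron (++) and at 1.68 to 2.29 FPKM in degron (−). HMGA2, a chromatin protein and let-7 target, was at 4.92 to 7.08 FPKM against 30.8 to 37.5 FPKM (log2 difference -2.35, adjusted p = 1.48e-07, limma). IGF2BP2 was lower in degron (++) too, at 14.5 to 15.7 FPKM against 28.4 to 30.9 FPKM, as was IGF2BP3, at 19.6 to 24.1 FPKM against 25.4 to 28.4 FPKM. ELAVL1, which stabilizes mRNAs, was higher at 30 h (log2 difference 0.32, adjusted p = 0.000125), and at 48 h its difference changed sign after TPM rescaling. KHSRP did not pass at 30 h (log2 difference -0.11, adjusted p = 0.107). Like PEG10, IGFBP3 and IGFBP6 rose between 30 h and 48 h with 4 Gy in degron (−), with log2 differences of 1.02 (adjusted p = 0.00532) and 0.88 (adjusted p = 0.00478), in the libraries in which the 9p21 genes rose.

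**Figure D5:**
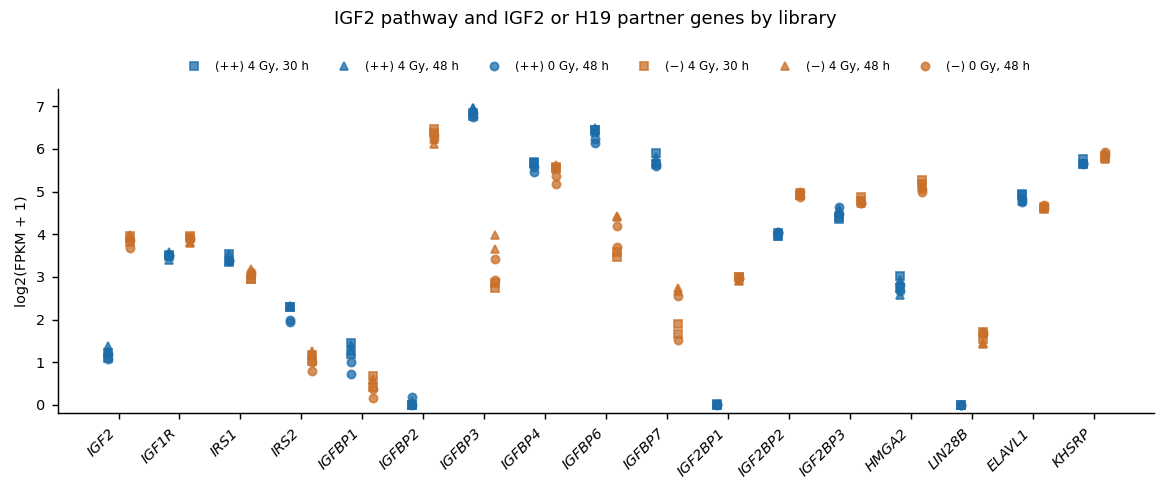
log2(FPKM + 1) of IGF2 and the 16 tested genes of its pathway and of the RNA-binding and chromatin partners in each of the 12 libraries. Blue symbols are degron (++) and orange symbols degron (−), with circles for 0 Gy at 48 h, squares for 4 Gy at 30 h and triangles for 4 Gy at 48 h. IGF2, IGFBP2, IGF2BP1, HMGA2 and LIN28B lie lower and IGFBP3, IGFBP6 and IGFBP7 higher in all degron (++) libraries.

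The genes most like H19 were taken as those with a mean of at least 5 FPKM and the highest Pearson correlation of log2(FPKM + 1) with it, as a description. Over all 12 libraries these were TNS3, TMEM218, C16orf53, KIAA0182 and SIX5, with r of 0.993 to 0.990 among 9181 genes. Most genes differ between the populations, and the 12 points share that difference. MEST (r = 0.966), MEG3 (0.960) and IGF2 (0.944) ranked 294, 516 and 1215 by the same measure. Over the 6 degron (−) libraries they were ZCCHC14, C17orf70, DCPS, DEAF1 and COL1A1, with r of 0.996 to 0.987 among 9074 genes. C17orf70, for example, was at 62.4 and 52.6 FPKM at 0 Gy and at 39.5 to 40.9 FPKM at 4 Gy. All 5 genes were highest in the same 0 Gy library, replicate 1, in which H19 was highest. They were picked for their correlation with H19 over these 6 libraries, so this shared peak adds nothing to it. Within degron (−), MEST had r = 0.716 and MEG3 0.437, whereas IGF2 had r = -0.816.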

How the data were processed

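RNA was sequenced from degron (++) and degron (−) PANC-1 cells. Per the labels, RNA was extracted with miRNeasy Micro and libraries were made with the TruSeq stranded mRNA kit. The authors deposited FPKM per gene symbol and library. The submitters' processing notes name TopHat2 2.1.1, Bowtie2 2.2.8, SAMtools 0.1.18, Cuffdiff 2.2.1 and hg19. FPKM hold no counts, so no count test and no interval for counting error was possible, and genes that overlap can share reads.

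From the deposited FPKM, log2(FPKM + 1) was tested with limma 3.58.1 in R 4.3.3 (lmFit with 6 group means over all 12 libraries, eBayes with trend) after genes below 1 FPKM in all but 1 library or in every library were removed, which left 12946. P-values were adjusted over all of these by Benjamini-Hochberg with a threshold of 0.05. The script was tested on simulated data. Differences on this scale understate the change of low genes.

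The 10 genes and all lists were chosen with earlier results of these data known. Named genes are the 10, genes of the lists, and the 5 genes most like H19 over 12 and over 6 libraries. Alternatives were no filter or a limit of 5 FPKM, a pseudocount of 0.1, TPM rescaling or quantile normalization, a block for the replicate number, eBayes without its trend, a fit on only the libraries compared, and each library left out. The ratio to the 11p15.5 neighbours and the order of all libraries by dose were added after the data were seen. All 10 symbols matched RefSeq on GRCh38.p14, which differs from the build of the files, so only names and sequences were taken from it, and 5 of the 10 have a promoter entry. Python 3.11.15, numpy 2.4.6, pandas 2.3.3 and matplotlib 3.10.9 were used.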

Additional observations from a re-analysis of the deposited data

Results flagged for a closer look

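The change of PEG10 between 30 h and 48 h with 4 Gy differed between the populations. The interaction term, degron (++) minus degron (−), was -0.56 on the log2 scale (adjusted p = 0.00971, limma), and over 16 alternatives the adjusted p lay between 0.0026 and 0.0454. In degron (−) the mean of PEG10 rose from 22.5 FPKM at 30 h to 34.0 FPKM at 48 h. Of the 9p21 genes, CDKN2A and MTAP also passed the interaction test, with values of -0.64 and -0.62, and CDKN2B did not pass. The part of the 9p21 genes in the PEG10 result was not tested.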

How the results depend on the processing

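The 7 calls between populations kept their direction and their side of the threshold in all alternatives. For MEG3 the direction was fixed by its values of 0 in degron (++). H19 at 48 h does not count as a test, since its degron (−) libraries took part in the selection. CDKN1C passed in 3, with 0.58 and 0.45 (quantile normalization, 30 h and 48 h with 4 Gy) and 0.28 (only the libraries compared, 30 h). TPM rescaling and quantile normalization changed the direction of none of these 7, while TPM rescaling turned CDKN1C at 48 h to -0.07 (4 Gy) and -0.05 (0 Gy) from 0.08 in both. A filter at FPKM 5 left 17 of the other imprinted genes called at 30 h, fewer being tested. After leaving out 1 library, 0 of the 8 genes passed between times in degron (++), and GRB10 was between -0.55 and -0.35. The GRB10 call was also lost, giving 0, with no filter, TPM rescaling, eBayes without trend, the replicate block and only the libraries compared. The last of these also gave 0 in degron (−).

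Replicate numbers did not pair the samples: correlations of their deviations ran from -0.038 to 0.122 over 15 pairs of groups, with 2 above 0.1. The replicate block called 125 genes for the dose and 88 for the time in degron (++), against 236 and 156.

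For the dose in degron (++), all genes called were 121 without a filter, 149 after quantile normalization, 57 with TPM, 128 without trend and 17 with only the libraries compared, and 1 to 36 with 1 library left out. In degron (−) they were 341 with TPM, 8 with only the libraries compared and 115 to 364 with 1 left out, against 612. For the time in degron (++) they were 99, 40 (TPM), 78 and 12 in the same order, without quantile normalization, and 15 to 25. In degron (−) they were 611 with TPM, 7 with only the libraries compared and 281 to 665, against 930. For the interaction they were 278 without a filter, 225 with TPM, 128 with only the libraries compared and 67 to 379, against 418. The cause was not tested. With 1 library left out, H19 in degron (−) was lower at 4 Gy by 0.40 to 0.69 (log2 differences of -0.69 to -0.40). Relative to the summed FPKM of the 11p15.5 neighbours it was -0.53, a value of the contrast on which H19 was selected.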
